A study of Homo sapiens with 8 samples.

Results

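The HOX genes of the HOXA, HOXB, HOXC and HOXD clusters were described in Rh41 cells, an established human alveolar rhabdomyosarcoma line, derived from a cancer with muscle-like cells. All rows of the deposited table with a symbol made of HOX, a cluster letter from A to D and a number were taken. This gave 40 rows for 39 genes among 60234 rows in all. HOXC4 was listed under a pair of Ensembl identifiers, and the one with the higher mean (ENSG00000273266) was kept, the other being listed at 0 in all 8 libraries. Gene expression had been measured by QuantSeq, which reads the 3′ ends of poly(A) transcripts, in 4 control libraries and 4 libraries labelled siG9a, all from Rh41 cells that carry the PAX3-FOXO1 fusion gene. In the siG9a libraries G9a, the product of EHMT2, which methylates histone H3 at lysine 9, had been knocked down (the series title writes shG9a). The labels give no time after the knockdown, no description of the control reagent, and no batch or date. The design text calls the 4 samples of a group biological replicates of this 1 cell line. Nothing in the labels names separate cultures, so p-values measure the spread between these libraries, which may be partly technical.

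HOX proteins are homeodomain transcription factors that give cells along the head-to-tail axis and along the limbs their positional identity. In each cluster the genes lie side by side in the order of their paralog groups, which are numbered by descent from shared ancestral genes, and low numbers tend to be active nearer the head and high numbers nearer the tail. Polycomb complexes keep silent HOX genes repressed and trithorax-type complexes keep active ones on, so that adult cells and tumours often retain a HOX pattern of their site of origin. HOX proteins bind DNA together with cofactors of the PBX and MEIS families, and CDX proteins activate HOX genes of the middle and rear of the clusters during development.

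Values are CPM, read counts scaled to the library's total of reads assigned to genes. Libraries held from 1458825 to 1938665 reads, and 3 reads, the minimum used here for calling a gene detected in a library, corresponded to 1.55 to 2.06 CPM. Because reads come from transcript ends, CPM needs no correction for length when genes are compared. Several HOX genes, however, overlap a neighbour on the same strand in the gene annotation, as HOXA9 does with HOXA10. How reads in shared stretches were counted was not examined, so rankings of genes and clusters are rankings of assigned reads. EHMT2 averaged 75.3 CPM in the control and 36.6 CPM in the siG9a libraries (SD 15.05 and 16.2, n = 4). It was lower in 4 of 4 pairs of libraries with the same number (limma adjusted p 0.191, and 0.000472 with the number as a block). The summed level of 12 muscle and rhabdomyosarcoma markers, which include MYOD1 and DES, ran from 371 to 2851 CPM in control and from 246 to 1640 CPM in siG9a, with MYF5 at 0 throughout. The lowest value in each group was that of replicate 3, and these libraries stand apart in many other genes. In bulk libraries, fewer cells of a type and less RNA per cell cannot be told apart.

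The promoters of 3 genes are shown because their levels set the replicates apart: HOXA7, the HOX gene with the highest mean, was low in both replicate 3 libraries, and HOXA11 and HOXD11 were high there. The sequences are from RefSeq (GRCh38.p14), with 250 bases before and 50 after the transcript start, 5′ to 3′ on the strand of the gene. Capitals mark matches on either strand to CAGCTG, an E-box form that MYOD can bind, to TGATNNAT, a composite PBX-HOX form, or to TTTATG, a CDX form. HOXA7 is at chr7:27156626-27156925 on the minus strand, HOXA11 at chr7:27185183-27185482 on the minus strand and HOXD11 at chr2:176107030-176107329 on the plus strand.
HOXA7: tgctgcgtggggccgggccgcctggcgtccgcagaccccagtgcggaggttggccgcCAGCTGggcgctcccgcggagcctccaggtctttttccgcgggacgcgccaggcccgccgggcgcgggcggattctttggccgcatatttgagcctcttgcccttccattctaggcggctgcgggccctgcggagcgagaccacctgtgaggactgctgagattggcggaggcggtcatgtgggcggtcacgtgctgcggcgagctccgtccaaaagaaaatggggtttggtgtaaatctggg
HOXA11: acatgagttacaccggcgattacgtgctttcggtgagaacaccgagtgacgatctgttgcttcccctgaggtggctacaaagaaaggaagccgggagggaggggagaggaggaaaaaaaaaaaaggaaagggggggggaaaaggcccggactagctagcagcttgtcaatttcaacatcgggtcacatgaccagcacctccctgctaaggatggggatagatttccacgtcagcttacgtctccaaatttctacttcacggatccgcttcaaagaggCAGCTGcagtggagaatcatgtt
HOXD11: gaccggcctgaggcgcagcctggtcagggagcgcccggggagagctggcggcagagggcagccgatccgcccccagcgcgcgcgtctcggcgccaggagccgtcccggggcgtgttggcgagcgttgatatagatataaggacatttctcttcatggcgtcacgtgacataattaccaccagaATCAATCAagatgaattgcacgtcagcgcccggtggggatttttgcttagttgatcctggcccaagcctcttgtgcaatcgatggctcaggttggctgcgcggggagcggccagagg
The HOXA7 window is the richest in G and C of the 3, at 68.0% with 31 CpG, against 51.3% with 13 CpG for HOXA11 and 62.3% with 27 CpG for HOXD11. HOXA7 and HOXA11 hold 1 CAGCTG each and HOXD11 holds 1 TGATNNAT, and no TTTATG was found in these windows. CAGCTG was found in 17.9% of all 35116 promoter windows and in 7 of 27 windows of the 20 HOX genes with an entry, TGATNNAT in 7.40% and 3 of 27, and TTTATG in 10.6% and 3 of 27. The part of these motifs in the levels of the 3 genes was not tested.

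In control cells, HOX transcripts came from all 4 clusters and mainly from central and posterior genes, with 3.54% of the mean HOX total from the anterior ones. At least 3 reads in each of the 4 control libraries were found for 21 of 39 genes, some reads in fewer libraries for 14, and none for 4. The 4 without a control read were HOXB1, HOXC12, HOXD1 and HOXD12. The detected genes were 6 of 11 in HOXA, 6 of 10 in HOXB, 5 of 9 in HOXC and 4 of 9 in HOXD. By position they were 3 of 8 anterior genes (groups 1 to 3), 10 of 15 central genes (groups 4 to 8) and 8 of 16 posterior genes (groups 9 to 13).

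The HOXA cluster held the most HOX transcript in control. Its summed level was 225 ± 27.4 CPM, or 47.9% of the mean HOX total of 471 ± 141 CPM (SD, n = 4). HOXB held 102 ± 42.1 CPM, HOXC 83.7 ± 41.5 CPM and HOXD 59.5 ± 31.5 CPM (SD, n = 4). All 4 clusters were highest in control replicate 3, but HOXA had the smallest SD relative to its mean. Its share of the HOX total was 58.6% in control replicate 1 and 39.2% in control replicate 3. Within each of the 4 control libraries HOXB was above HOXC and HOXC above HOXD, at 72.0, 43.9 and 25.4 CPM in replicate 1 and 164, 142 and 101 CPM in replicate 3. Paralog group 7 had the highest summed level in control replicates 1, 2 and 4, at 158, 151 and 137 CPM, against 48.0, 65.6 and 86.2 CPM for group 10 and 40.4, 67.4 and 75.8 CPM for group 9. In control replicate 3 it was at 57.8 CPM, below group 9 at 151 CPM, group 10 at 149 CPM, group 4 at 62.7 CPM and group 6 at 60.9 CPM. Group 12 had no reads in any library, and group 2 summed to 1.59 ± 1.64 CPM (SD, n = 4).

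The HOX total was 341, 419, 671 and 451 CPM in control replicates 1 to 4 and 369, 404, 552 and 497 CPM in siG9a replicates 1 to 4, highest in replicate 3 of both groups. Without HOXA7 the gap was wider, at 223, 302, 641 and 344 CPM in control and 255, 302, 510 and 353 CPM in siG9a. HOXA7 made up 34.7%, 27.97%, 4.49% and 23.7% of the HOX total in control and 30.9%, 25.2%, 7.45% and 28.99% in siG9a. The central genes summed to 242 ± 13.9 CPM in control against 242 ± 33.6 CPM in siG9a, and the posterior genes to 212 ± 118 against 196 ± 77.6 CPM (SD, n = 4 each). Both differences were smaller than the spread between libraries.

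**Figure D1:**
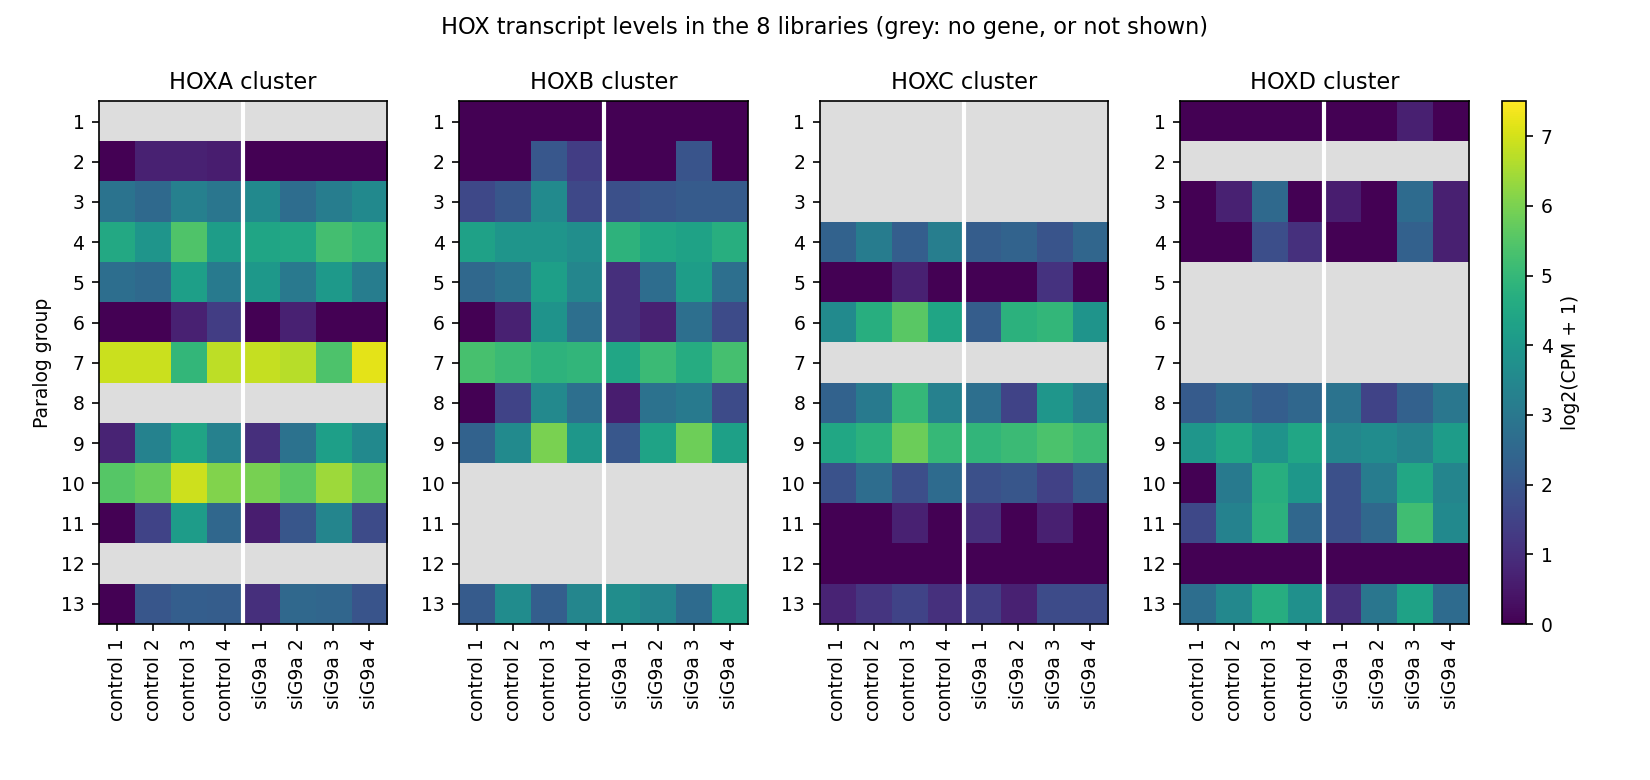
Level of each HOX gene, as log2(CPM + 1) by colour, in the 8 libraries (columns) by paralog group (rows), with 1 panel per cluster and grey where the cluster has no such gene or it is not shown. HOXA7 and HOXA10 are the brightest rows, and the replicate 3 columns of both groups are brighter than their neighbours in most other rows of the clusters but darker for HOXA7.

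HOXA7 (ENSG00000122592), a central HOX gene, had the highest mean. It measured 119, 117, 30.1 and 107 CPM in control replicates 1 to 4, and 114, 102, 41.1 and 144 CPM in siG9a replicates 1 to 4. Replicate 3 was the low library in both groups and the other 6 lay between 102 and 144 CPM. HOXA10 (ENSG00000253293), a posterior gene of the same cluster, measured 45.2, 52.9, 121 and 66.5 CPM in control and 61.9, 47.8, 82.8 and 52.2 CPM in siG9a. Here replicate 3 was the high library, and it was the only one in each group in which HOXA10 exceeded HOXA7. HOXA10 over HOXA7 was 4.02 in control replicate 3 and 2.01 in siG9a replicate 3, against 0.381 to 0.621 in the other control and 0.363 to 0.543 in the other siG9a libraries. In control, the means of 93.2 ± 42.4 CPM for HOXA7 and 71.4 ± 34.3 CPM for HOXA10 did not differ beyond their spread (SD, n = 4). Over control replicates 1, 2 and 4 they were 114 ± 6.37 and 54.9 ± 10.7 CPM (SD, n = 3).

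Neighbours of HOXA7 in the cluster had far lower means of assigned reads. HOXA6 overlaps HOXA3 on the same strand, and HOXA9 overlaps HOXA10. The part of these overlaps in their levels was not tested. HOXA6 had 4 reads in all over the 4 control libraries, and HOXA9, a posterior gene active in blood progenitors, measured 0.69, 9.11, 19.7 and 8.83 CPM in control and 1.03, 6.05, 17.7 and 10.9 CPM in siG9a. The replicate 1 libraries were the lowest and the replicate 3 libraries the highest for HOXA9 in both groups. HOXA4, a central gene, measured 21.9, 13.98, 42.4 and 17.1 CPM in control and 20.1, 21.8, 37.1 and 31.0 CPM in siG9a. Replicate 3 was again the highest library of each group. HOXA3 (6.60 ± 1.56 CPM) and HOXA5 (8.86 ± 6.07 CPM) were also detected in control (SD, n = 4), while HOXA11 and HOXA13 had no read in control replicate 1 and at least 3 in the other control libraries.

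In HOXB, the highest gene in control was HOXB7, a central gene with the group number of HOXA7. It measured 39.1, 33.4, 27.7 and 29.6 CPM in control and 20.6, 33.3, 24.0 and 38.4 CPM in siG9a, with no library apart from the others. HOXB9, a posterior gene, measured 4.11, 10.9, 62.7 and 14.5 CPM in control and 3.09, 19.4, 56.5 and 18.4 CPM in siG9a. Its replicate 3 libraries exceeded all 6 others, and its replicate 1 libraries were the lowest. HOXB13, the last gene of the cluster, known from prostate and tail-end tissues, measured 3.43, 11.6, 3.69 and 9.87 CPM in control and 11.9, 9.68, 5.14 and 19.5 CPM in siG9a. It was lowest in replicate 3 of siG9a and in replicate 1 of control, so its libraries were not ordered as those of HOXB9.

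In HOXC, HOXC9, a posterior gene of thoracic identity, measured 21.2, 26.7, 55.3 and 31.7 CPM in control and 29.4, 33.3, 40.5 and 34.4 CPM in siG9a. HOXC6, a central gene, measured 10.97, 24.9, 46.7 and 20.2 CPM in control and 3.61, 27.2, 30.3 and 13.8 CPM in siG9a. HOXC8, also central, measured 4.11, 7.29, 30.8 and 8.83 CPM in control and 5.67, 1.82, 14.3 and 8.60 CPM in siG9a. All 3 were highest in replicate 3 of both groups. HOXC10 and HOXC4, which ran from 2.46 to 5.47 CPM and from 3.69 to 8.31 CPM in control, were lowest in replicate 3 of both groups.

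In HOXD, HOXD9, a posterior gene of trunk and limb, was the highest in control. It measured 14.4, 20.7, 13.5 and 20.8 CPM in control and 9.80, 11.5, 9.13 and 16.6 CPM in siG9a, lowest in replicate 3 of each group. HOXD10, a limb and lumbar gene beside it, measured 0, 7.29, 25.2 and 14.5 CPM in control and 2.58, 7.87, 21.7 and 9.75 CPM in siG9a. Between replicates 1 and 3 HOXD9 differed by little in either group, while HOXD10 was higher in replicate 3 of both. HOXD11, the next gene, measured 2.06, 9.11, 27.1 and 4.67 CPM in control and 2.58, 4.84, 35.4 and 10.9 CPM in siG9a, with both replicate 3 libraries above all others. HOXD13, the last gene of the cluster and a regulator of digits, measured 5.48, 10.3, 24.6 and 12.5 CPM in control and 1.03, 6.66, 18.8 and 5.16 CPM in siG9a.

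The knockdown was assessed on the 30 HOX genes whose mean over the 8 libraries reached 1 CPM. The other 9 did not pass that filter, and none of them exceeded 3.07 CPM in a library. The test was limma on log2(CPM + 1), fitted to 15092 genes with p-values adjusted over all of them by the Benjamini-Hochberg method and a threshold of 0.05. Same-numbered libraries of the groups shared deviations clearly for numbers 1 and 3 (correlations of 0.50 and 0.67) and weakly for 2 and 4 (0.104 and 0.13). The labels name no pairing, so a fit with that number as a block was set beside the fit without it.

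No HOX gene passed the test for a change with the knockdown. Limma called 0 of 30 without the block, where it called 0 of 15092 genes (0.0%), and 1 HOX gene had an unadjusted p under 0.05, against 12.5% of all genes. With the block limma called 0 of 30, where it called 1717 genes (11.4%), 733 higher (4.86%) and 984 lower (6.52%), and 3 HOX genes had an unadjusted p under 0.05, against 25.5% of all genes. On the reads recovered from the CPM values, edgeR's quasi-likelihood test called 0 HOX genes without the block (0.0% of all genes) and with it (11.3%). At an unadjusted p under 0.05 it gave 1 HOX gene (12.2% of all genes) and, with the block, 2 (24.4%). DESeq2 called 0 HOX genes without the block (1.93% of all genes) and with it (6.2%), and at an unadjusted p under 0.05 it gave 1 (11.9%) and 0 (16.3%). Without both replicate 3 libraries limma called 0 HOX genes without the block (2.74% of all genes) and with it (7.14%), with 2 at an unadjusted p under 0.05 in either fit (17.3% and 22.2% of all genes). HOXB4 was among the HOX genes under that unadjusted limit in each of these fits except DESeq2 with the block. The median log2 change of the 30 genes was 0.08, with 17 higher and 13 lower in siG9a, and that of all tested genes was 0.01.

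**Figure D2:**
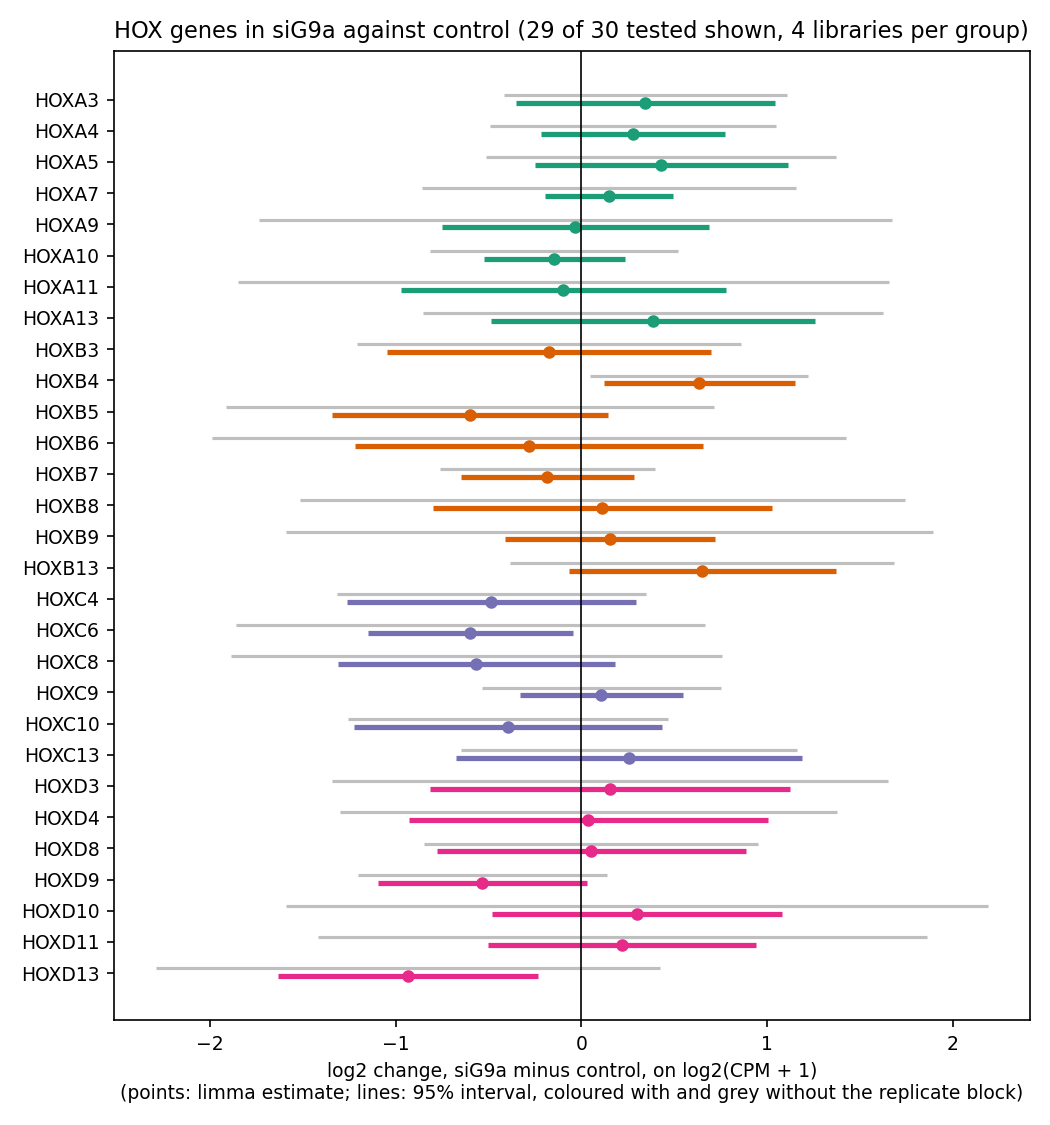
The log2 change of 29 of the 30 tested HOX genes, siG9a minus control on log2(CPM + 1), with 1 row per gene and 4 libraries per group. Points are limma estimates, coloured lines the 95% intervals with the replicate block and grey lines those without it. Most intervals include 0, and HOXB4 is the gene whose intervals lie above 0 in both fits.

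The depth and the spread between libraries limited how small a change could be seen. The median HOX value in a control library rested on 13 reads, and 23 of the 30 genes had under 10 reads in at least 1 library. The standard error of the log2 change ran from 0.27 to 0.87 without the block and from 0.17 to 0.47 with it. HOXA7, with 49 or more reads in every library, had an SE of 0.46 without the block. Folds here are of CPM + 1, which understates changes of low genes such as HOXA9, HOXA11 and HOXD8. With the block, the 95% interval lay inside a 2-fold change in either direction for 10 genes, which were HOXA4, HOXA7, HOXA9, HOXA10, HOXA11, HOXB7, HOXB9, HOXC9, HOXD8 and HOXD11. Without the block this held for 4 (HOXA10, HOXB7, HOXC9 and HOXD8), and the interval of HOXA7 was then 0.553-fold to 2.23-fold. With the block, for HOXA7 the log2 change was 0.15 ± 0.17 (SE), an interval of 0.873-fold to 1.41-fold, with a limma adjusted p of 0.630. For HOXA10 it was −0.15 ± 0.18 (SE), an interval of 0.695-fold to 1.18-fold, with a limma adjusted p of 0.680. For the other 20 genes a 2-fold change in at least one direction was inside the interval with the block.

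HOXB4, a central gene known for its part in blood stem cells, was the only HOX gene whose groups did not overlap, which held for 7.32% of all genes tested. It measured 18.5, 13.98, 14.1 and 11.9 CPM in control and 27.9, 21.2, 18.8 and 25.2 CPM in siG9a. Every siG9a library was above every control library, by a small margin between siG9a replicate 3 and control replicate 1. The means were 14.6 ± 2.77 and 23.3 ± 4.03 CPM (SD, n = 4 each). Over all genes the log2 change of 0.64 ± 0.27 (SE) had a limma adjusted p of 0.363 without the block and 0.103 with it. HOXB4 was also the only HOX gene higher in 4 of 4 pairs, which held for 14.9% of all genes.

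HOXD13 had the lowest adjusted p with the block. It averaged 13.2 ± 8.13 CPM in the control and 7.92 ± 7.66 CPM in the siG9a libraries (SD, n = 4), and the groups overlapped although it was lower in 4 of 4 pairs. With the block, the log2 change was −0.93 ± 0.34 (SE; limma adjusted p 0.0760). Without it the SE was 0.63 and the adjusted p 0.582. HOXC6 had a log2 change of −0.60 ± 0.27 (SE; limma adjusted p 0.158) in the blocked fit, and was lower in 3 of 4 pairs. Lower values in 4 of 4 pairs were found for 5 of the 30 genes (HOXB5, HOXC4, HOXC10, HOXD9 and HOXD13), which is 16.7% of them, against 15.3% of all genes.

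Over the lists of genes that act on, with or beside the HOX clusters, 4 of 59 tested genes (6.78%) were called with the block, against 11.4% of all genes. In the same fit 6 of 9 tested muscle and rhabdomyosarcoma markers were called as lower, among them ACTC1, DES, MYL4 and TNNT2, with a median log2 change of −1.20 over the 9, as were the fibroblast gene COL1A1 and the epithelial gene CDH1. The part of these in the calls of the lists was not tested. Of 7 noncoding RNAs of the clusters that were tested, HOTAIRM1, a long noncoding RNA of the HOXA cluster known from myeloid differentiation, was called as higher with the block. It measured 10.97, 15.2, 30.1 and 19.7 CPM in control and 37.1, 37.5, 38.2 and 29.2 CPM in siG9a, and was higher in 4 of 4 pairs. Only siG9a replicate 4 fell below a control library, that of replicate 3. With the block, the log2 change was 0.95 ± 0.24 (SE; limma adjusted p 0.0122). Without it the SE was 0.31 and the adjusted p 0.245. The call with the block was lost when the pair of replicate 1 (adjusted p = 0.105) or of replicate 2 (0.106) was left out in limma, without the filter on low values (0.0523) and in DESeq2 (0.0536).

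Of the 9 cofactors of the PBX, MEIS and PKNOX families, all tested, none was called in either fit, and their median log2 change was −0.17. None of 13 trithorax-type and other HOX activators was called. Of 16 genes of Polycomb repressive complex 1, which keeps HOX genes silent, 3 were called as higher and 0 as lower with the block, where 4.86% of all genes were called as higher and 6.52% as lower, and 0 without it. They were CBX6, a chromodomain subunit, PHC3, a polyhomeotic subunit, and PCGF3, a RING finger subunit. CBX6 rose from 224 ± 73.9 CPM in control to 422 ± 162 CPM with the knockdown (SD, n = 4), with limma adjusted p-values of 0.254 without and 0.000166 with the block. PHC3 measured 16.7 ± 5.31 and 36.3 ± 10.1 CPM (SD, n = 4 each), with limma adjusted p-values of 0.209 and 0.00240. PCGF3 measured 32.3 ± 6.51 and 54.4 ± 11.3 CPM (SD, n = 4 each), with limma adjusted p-values of 0.256 and 0.0150, and its call was lost when the pair of replicate 2, 3 or 4 was left out (adjusted p from 0.0584 to 0.0729) and in DESeq2 (0.0609). Neither the 6 tested genes of the retinoic acid pathway, which activates HOX genes, nor the 8 tested genes that flank the clusters held a call in either fit.

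HOX levels also differed between replicate numbers. Replicate 3 was singled out with earlier results of these libraries known, so its comparison with the other libraries is a description with no test. In both groups, replicate 3 was at least 2-fold above the mean of the other 3 libraries, on CPM + 1, for 12 of the 30 genes, against 4.79% of all genes, and at least 2-fold below it for 1 (HOXA7), against 8.07% of all genes. A gene can pass the filter because replicate 3 is high. Of the 28 HOX genes whose mean over the other 6 libraries reached 1 CPM, 10 were at least 2-fold higher in replicate 3 of both groups, against 4.2% of the 14745 genes that pass the same filter, and 1 (HOXA7) was at least 2-fold lower, against 8.26% of them. With a pseudocount of 5 in place of 1, which weighs low genes less, 6 genes were at least 2-fold higher and 1 lower, 7 in all, against 2.12% and 4.07% of all genes. With a 4-fold limit 2 were higher (HOXD3 and HOXD11) and none lower, against 0.391% and 0.967% of all genes, and of the 28 genes that pass the filter on the other 6 libraries 1 was (HOXD11), against 0.326%. With a 1.5-fold limit 15 of the 30 were higher, HOXD3 and HOXD4 among them, and 2 lower, against 11.7% and 15.9% of all genes.

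**Figure D3:**
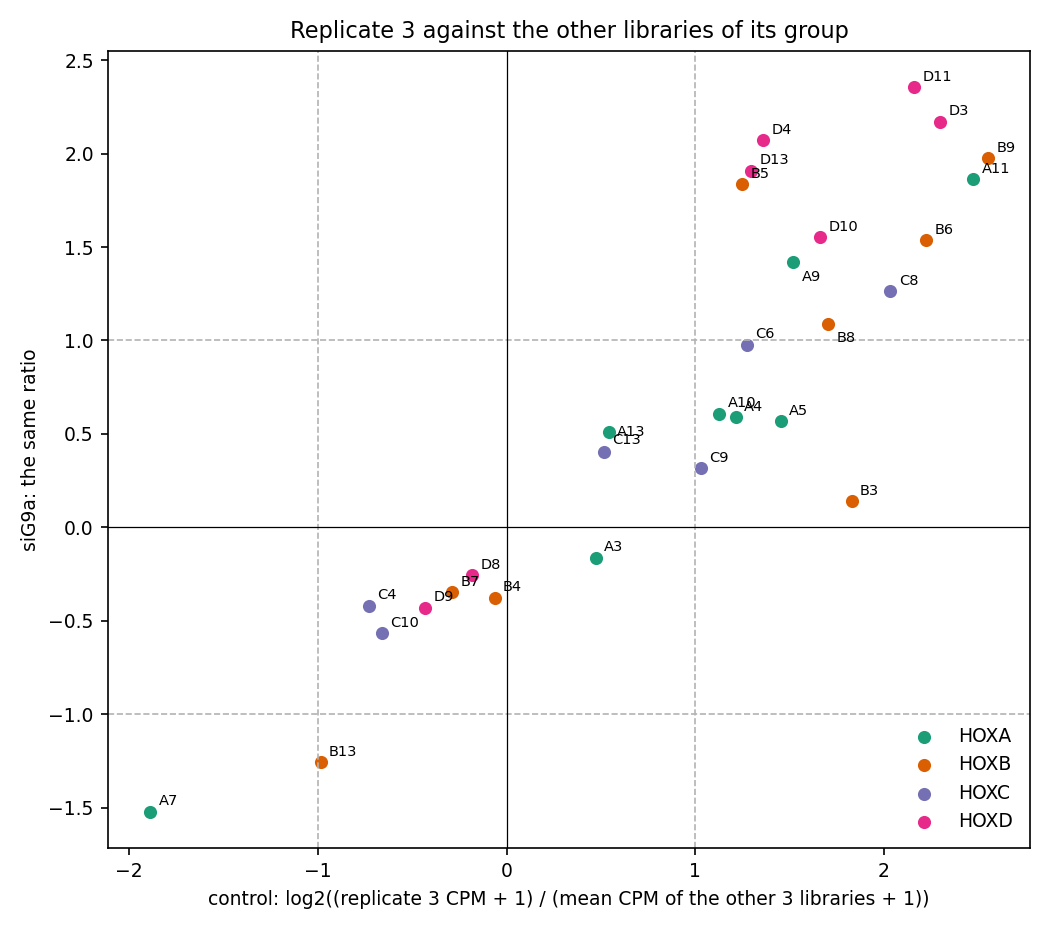
The same 29 of 30 tested HOX genes, each by its log2 ratio of replicate 3 to the mean of the other 3 libraries, on CPM + 1, in control (x axis) and siG9a (y axis), coloured by cluster. Dashed lines mark 2-fold. The 12 genes at the upper right exceed 2-fold in both groups and come from all 4 clusters, HOXA7 is alone at the lower left beyond 2-fold, and HOXB13 is next to it.

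Higher values in replicate 3 were found in every cluster. In HOXA they were HOXA9 and HOXA11, in HOXB they were HOXB5, HOXB6, HOXB8 and HOXB9, in HOXC HOXC8, and in HOXD HOXD3, HOXD4, HOXD10, HOXD11 and HOXD13. Just inside the 2-fold limit in siG9a was HOXB8, at log2 ratios of 1.71 in control and 1.09 in siG9a, and just outside it was HOXC6, at 1.28 and 0.98. In CPM without the added 1, HOXB9 was at 6.36-fold the mean of the other libraries in control and 4.15-fold in siG9a, and HOXD11 at 5.12-fold and 5.80-fold. On the same scale HOXA7 was at 0.264 and 0.343 of the mean of the others.

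HOXA11, a gene of the forearm and the uterus, measured 0, 1.82, 16.6 and 4.67 CPM in control and 0.52, 3.03, 9.71 and 2.29 CPM in siG9a. HOXB5, a central gene, measured 4.80, 6.08, 17.8 and 9.87 CPM in control and 1.03, 5.45, 17.1 and 5.74 CPM in siG9a. HOXB8, also central, measured 0, 1.82, 10.5 and 5.71 CPM in control and 0.52, 6.05, 7.42 and 2.29 CPM in siG9a. These 3 genes were lowest in replicate 1 and highest in replicate 3 of both groups. HOXB6, a central gene, measured 0, 0.61, 13.5 and 5.71 CPM in control and 1.03, 0.61, 5.71 and 2.29 CPM in siG9a. HOXD3, an anterior gene next to HOXD4, measured 0, 0.61, 4.92 and 0 CPM in control and 0.52, 0, 5.14 and 0.57 CPM in siG9a. HOXD4 measured 0, 0, 2.46 and 1.04 CPM in control and 0, 0, 4.00 and 0.57 CPM in siG9a. For HOXD3 and HOXD4 the libraries other than replicate 3 were at or under 2 reads, so that both pass the filter through replicate 3.

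The order of the libraries was shared by many members. In both groups, replicate 3 was the highest library for 17 of 30 HOX genes (20.1% of all genes) and the lowest for 5 (19.8% of all genes). Replicate 3 was highest and replicate 1 lowest in both groups for 10 of 30 (8.02% of all genes), a pattern counted after the values were seen. Under the filter on the other 6 libraries replicate 3 was highest for 15 of 28, against 19.3% of the genes, and also replicate 1 lowest for 10 of 28, against 8.01%. In control replicate 1, the library with the fewest reads, 7 of the 30 genes had no read (4.55% of all genes). Among them were HOXD3 and HOXD4, which pass the filter through replicate 3. In siG9a replicate 1 there was 1, HOXD4 (3.44% of all genes). Both replicate 3 libraries lay above all 6 others for 16 of 30 genes (14.4% of all genes) and below them for 2, HOXA7 and HOXC10 (13.7% of all genes). Under the filter on the other 6 libraries they lay above for 14 of 28, against 13.7% of the genes.

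**Figure D4:**
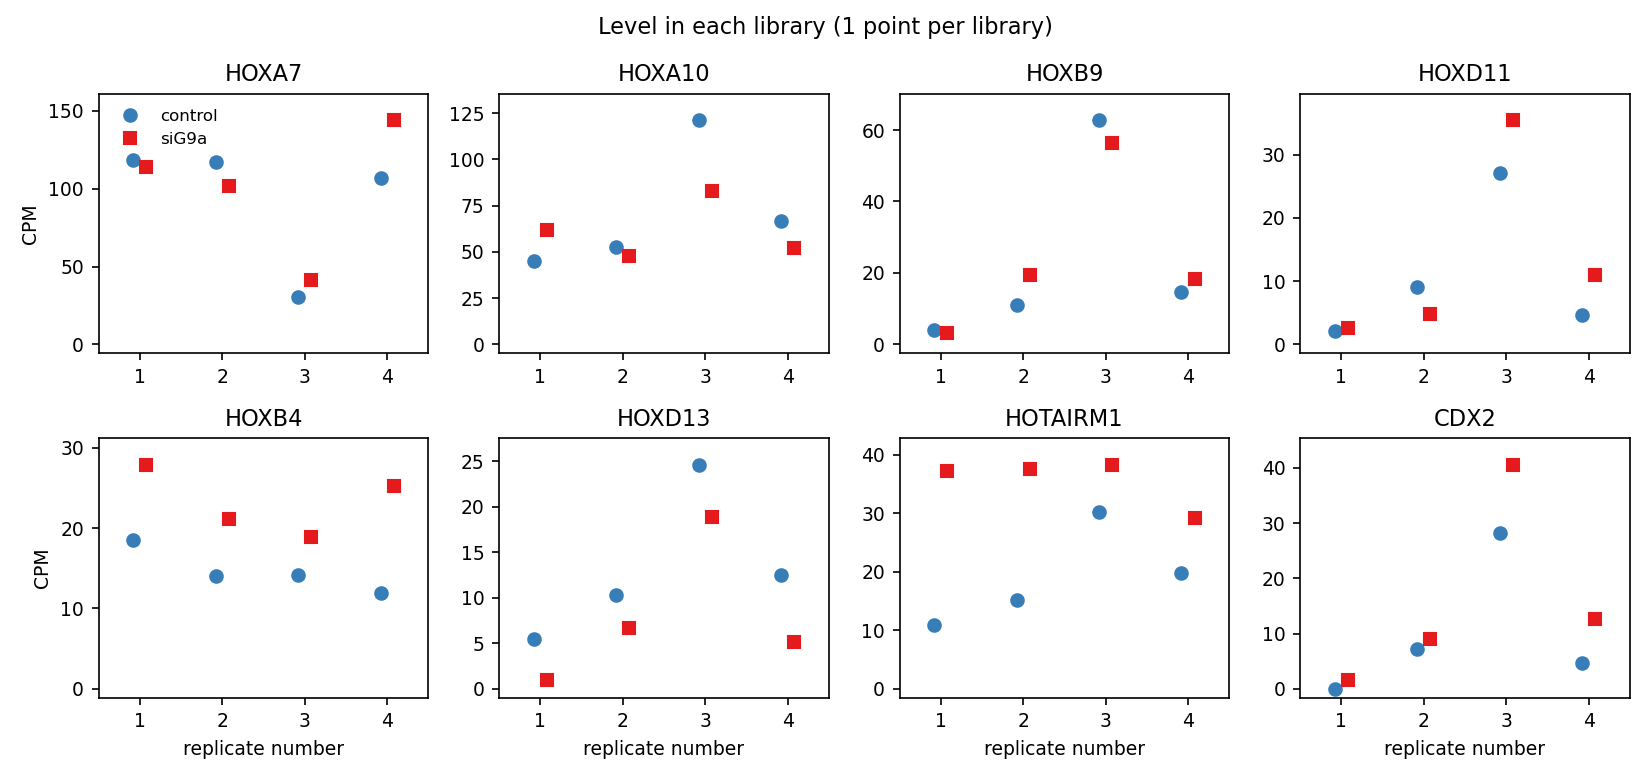
CPM of 6 HOX genes, HOTAIRM1 and CDX2 by replicate number, with 1 point per library (blue circles control, red squares siG9a). HOXA10, HOXB9, HOXD11, HOXD13 and CDX2 peak at replicate 3 in both groups and HOXA7 dips there, while HOXB4 separates the groups and shows no peak.

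The ratios had little relation to position within the cluster. Across the 30 genes, the Spearman correlation of the paralog number with the log2 ratio of replicate 3 was 0.013 in control and 0.13 in siG9a, and the ratios of the groups had a Pearson correlation of 0.90 with each other. Genes share libraries and overlapping transcripts, so these values are a description. Over all tested genes the deviations of the replicate 3 libraries from their group means correlated at 0.67. Agreement between these libraries was thus not particular to HOX genes. The median ratio of the 30 genes was 1.23 in control and 0.58 in siG9a on the log2 scale, against −0.03 and −0.05 for all tested genes. These medians and the correlations across the 30 genes include HOXD3 and HOXD4, which pass the filter through replicate 3. The other genes on the chromosomes of the clusters had medians of −0.12 and −0.14 (chromosome 7, HOXA), −0.09 and −0.10 (chromosome 17, HOXB), −0.03 and −0.10 (chromosome 12, HOXC) and −0.12 and −0.17 (chromosome 2, HOXD) in control and siG9a. Among the 8 tested genes that flank the clusters, none was at least 2-fold higher in replicate 3 of both groups (4.79% of all genes). At least 2-fold lower there were 2 of them (8.07% of all genes). One of the lower pair was PRAC2, which lies beside HOXB13, at 61.7, 61.4, 13.5 and 45.2 CPM in control and 38.7, 47.2, 10.8 and 31.5 CPM in siG9a.

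Other transcripts of the clusters, and 3 of the 13 tested activators, were also at least 2-fold higher in replicate 3 of both groups. This held for 4.79% of all genes. The transcripts were 4 of the 7 noncoding RNAs tested, of which HOXB-AS1 passed the filter only through replicate 3. Under the filter on the other 6 libraries 3 of 5 remain, against 4.2% of the genes that pass it. The activators were AFF1, CDX2 and MLLT3, and none of the 13 was at least 2-fold lower. Of the 6 tested retinoic acid genes, 3 were at least 2-fold lower in replicate 3 of both groups and 0 higher. Their median log2 ratios were −1.30 in control and −1.29 in siG9a, and 8.07% of all genes were at least 2-fold lower. The part of these genes in the HOX values was not tested. HOXA11-AS, antisense to HOXA11, measured 0.69, 4.25, 19.1 and 5.19 CPM in control and 0.52, 7.87, 20.0 and 6.31 CPM in siG9a, and HOXA10-AS 0, 4.86, 16.0 and 5.19 CPM in control and 0, 7.26, 16.6 and 2.87 CPM in siG9a. Both were highest in replicate 3 and lowest in replicate 1 of each group, as HOXA11 was, and without a known strand setting the reads of a gene and its antisense partner cannot be told apart. In GENCODE release 29, 28 of the 30 tested HOX genes overlap another gene or, for HOXC4, have an identifier it does not hold. CDX2, a homeodomain activator of HOX genes in the gut and the tail bud, measured 0, 7.29, 28.3 and 4.67 CPM in control and 1.55, 9.08, 40.5 and 12.6 CPM in siG9a. It was highest in replicate 3 and lowest in replicate 1 of both groups, and its log2 change with the knockdown was 0.85 ± 0.35 (SE; limma adjusted p 0.118 with the block).

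Among cofactors and lineage markers, some were lower and some higher in replicate 3. Of all tested genes, 4.79% were at least 2-fold higher in replicate 3 of both groups and 8.07% at least 2-fold lower. PBX3, the PBX cofactor with the highest control mean, measured 123, 99.0, 41.8 and 76.3 CPM in control and 119, 62.3, 36.0 and 91.8 CPM in siG9a, and 3 of the 9 cofactors were at least 2-fold lower in replicate 3 of both groups and none higher. Of 9 tested muscle and rhabdomyosarcoma markers, 7 were at least 2-fold lower there and none higher. The summed level of 6 neuronal markers, almost all from the neurofilament genes NEFL and NEFM, was 186, 1824, 9606 and 2041 CPM in control and 220, 2951, 8930 and 1907 CPM in siG9a, the order of HOXB9, with NEFH and ELAVL4 at 0 in every control library and TUBB3 at 2.74, 7.29, 0 and 0 CPM there. Of 5 tested epithelial markers, 2 (KRT8 and KRT18) were at least 2-fold higher in replicate 3 of both groups. KRT19, KRT5 and CDH1 had log2 ratios of −2.23, −1.05 and −0.59 there in siG9a. In control the median log2 ratio of the 5 was 1.65, so these 3 were not all lower in replicate 3 there. The sum of the 6 listed ran from 10.3 to 78.7 CPM in control and from 24.6 to 44.5 CPM in siG9a, with replicate 3 highest in each. The sum of 8 fibroblast markers ran from 118 to 406 CPM in control and from 52.0 to 320 CPM in siG9a, lowest in replicate 3, with POSTN at 0. Of 4 listed endothelial markers 3 were found. They summed to at most 2.08 CPM in a library, with CDH5 and KDR at 0 in all 8 libraries. The 5 leukocyte markers summed to at most 9.71 CPM in a library. The part of any of these in the HOX values was not tested.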

How the data were processed

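Expression was analysed in 4 control and 4 siG9a libraries. The authors deposited CPM, read counts scaled to the library total, to 2 decimals, per the file headers. The submitters' processing notes name FastQC 0.11.8, Trim Galore, STAR 2.5.0a, HTSeq 0.8.0 and edgeR 3.28, and the builds GRCh38 and hg19. Which build, annotation and strand setting made the table is not given in the sources used here. In every library 100% of non-zero values were whole multiples of 1 read (within 0.0051 CPM), so reads were recovered. No pair of replicates was the same within counting noise (chi-square over its degrees of freedom, 5.90 to 28.7). Intervals and the limit of 3 reads cover counting error only.

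The 15092 genes whose mean reached 1 CPM were tested with limma 3.58.1 (R 4.3.3) on log2(CPM + 1), eBayes with trend, two-sided, with group as the only term. Because of the pseudocount of 1, fold changes of low genes are understated. The alternative has the replicate number of the sample titles as a block. Deviations of same-numbered libraries from their group means correlated across genes at 0.50, 0.104, 0.67 and 0.13 for numbers 1 to 4. Each was above 0.1, the limit set for using the numbers as a block. For numbers 1, 3 and 4 the best match was the library of the same number, but for control replicate 2 it was siG9a replicate 4. The labels name no pairing, so the block rests on these same data. edgeR 4.0.16 and DESeq2 1.42.0 were run on the recovered reads, with 15092 genes, as alternatives. The scripts were tested on simulated reads.

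Members with a mean of at least 1 CPM could be named, with values in each library for those with the 12 highest control means, those called and those shifted at least 2-fold in replicate 3. The members and lists were chosen with earlier results of these data known. GENCODE release 29 was used for overlaps and chromosomes, and RefSeq for promoters. The values of 1 tested HOX gene are not reported here, and it is counted only in totals.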

Additional observations from a re-analysis of the deposited data

Results flagged for a closer look

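Of 60 groups of 4 libraries (30 HOX genes in control and in siG9a), 5 had a library far from the other 3 by Dixon's ratio, where chance gives about 3. All 5 were replicate 3 libraries, 4 of them high. HOXD3 and HOXD4, with 3 of the 5, passed the filter on low values only through replicate 3, so that their distance there was set by the filter. Without these genes 2 of 56 groups remained, where chance gives about 2.8. In control replicate 3, HOXA7 was at 30.1 CPM, against 107 to 119 CPM in control replicates 1, 2 and 4. HOXB3, a gene of the front part of its cluster, was at 11.1 CPM in control replicate 3, against 2.06 to 3.04 CPM in the rest, but at 3.43 CPM in siG9a replicate 3, within the range of its group. HOXD3 was at 4.92 CPM in control replicate 3 (others 0 to 0.61) and at 5.14 CPM in siG9a replicate 3 (others 0 to 0.57). HOXD4 was at 4.00 CPM in siG9a replicate 3 (others 0 to 0.57). The HOXD3 and HOXD4 values each rest on fewer than 10 reads.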

How the results depend on the processing

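The count of HOX genes called was 0 in limma, edgeR and DESeq2 under all alternatives run, and the lowest adjusted p of a HOX gene in any of them was 0.0665. Over all genes the count without a block was 0, and 18 with no filter on low values, 292 in DESeq2, 413 without both replicate 3 libraries, 300 without control replicate 3 alone, 2 without siG9a replicate 4 alone and 0 in the other fits that left out libraries without a block. With the replicate block it was 1717, and 1363 and 1710 with pseudocounts of 0.1 and 5, 840 with no filter, 1653 at a mean of at least 5 CPM, 1694 with median-ratio scaling, 1711 in edgeR, 936 in DESeq2 and 951, 668, 1078 and 1393 without the pair of replicate 1, 2, 3 and 4. The block changed no HOX call. The alternatives to the replicate block fit with other pseudocounts, filters and scaling, and the filter on the other 6 libraries for the order of libraries and the 4-fold limit, were chosen after seeing the data. Detected HOX genes in control were 21, and 8 at 10 reads per library. Those 2-fold apart in replicate 3 were 13, and 2 at 4-fold and 7 with a pseudocount of 5.

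Of 29 tested HOX genes, 16 changed the sign of their log2 change in at least one alternative, none of them called. With a pseudocount of 0.1, without and with the block, HOXA9 was at 0.021, HOXA11 at 0.39, HOXB6 at 0.25 and HOXD4 at −0.022. HOXB8 was at −0.0077 with a pseudocount of 5 without and with the block, −0.16 in edgeR, −0.14 in DESeq2 and −0.051 in edgeR with the block. HOXD4 was at −0.077 in DESeq2 with the block, and HOXD10 at −0.17 in edgeR and DESeq2 and −0.053 in edgeR with the block. With 1 library or 1 pair left out the log2 change ran from −0.34 to 0.14 for HOXA10, −0.77 to 0.61 for HOXA11, −0.15 to 0.71 for HOXA13, −0.32 to 0.53 for HOXA7 and −0.76 to 0.60 for HOXA9. It ran from −0.41 to 0.29 for HOXB3, −0.89 to 0.40 for HOXB6, −0.36 to 0.054 for HOXB7, −0.53 to 0.64 for HOXB8, −0.42 to 0.85 for HOXB9 and −0.076 to 0.37 for HOXC9. It ran from −0.39 to 0.74 for HOXD3, −0.49 to 0.40 for HOXD4, −0.16 to 0.42 for HOXD8, −0.68 to 0.89 for HOXD10 and −0.41 to 0.80 for HOXD11. In fits with the replicate block and a pair left out, the reversed values were −0.050 without replicate 1 and −0.29 without replicate 2 for HOXB8, −0.0059, −0.21 and −0.16 without replicate 1 for HOXC9, HOXD10 and HOXD8, 0.054 without replicate 1 for HOXB7, and 0.13 without replicate 2 for HOXA9. Without replicate 3 they were 0.0067 for HOXA9, 0.11 for HOXA11, 0.25 for HOXB3 and −0.13 for HOXD4, and without replicate 4 they were 0.13 for HOXA11, −0.010 for HOXD3, −0.088 for HOXD8 and −0.063 for HOXD11. HOXB9 was at −0.051 without replicate 2. The cause was not tested.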
